A study of Mus musculus with 34 samples.

Results

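The guanylate-binding proteins examined here are 8 genes of the mouse Gbp family, Gbp2, Gbp3, Gbp4, Gbp6, Gbp7, Gbp8, Gbp9 and Gbp10. They were chosen by name and had 8 of the 13108 gene rows of the count table. Libraries were made by SMART-Seq2, in which whole transcripts are copied and amplified from small inputs, here 100 sorted HSCs each. Ythdf2CKO mice carried the floxed allele on both chromosomes together with Vav-iCre, a recombinase expressed in blood-forming cells (Ythdf2 fl/fl;Vav-iCre). Ythdf2CTL mice carried the same floxed allele without the recombinase (Ythdf2 fl/fl). This allele, which all mice shared, also places GFP in frame with YTHDF2, and Cre removes exon 2 only. All mice were C57BL/6. There were 4 Ythdf2CTL and 4 Ythdf2CKO mice labelled young, and 4 Ythdf2CTL and 5 Ythdf2CKO mice labelled 1 yr old, called aged below. Each mouse gave libraries A and B, which were added, and mice were the replicates. Library B of aged Ythdf2CTL mouse 99 had 187034 counts and was left out.

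YTHDF2 binds m6A-modified transcripts and promotes their decay. Guanylate-binding proteins are large GTPases that interferons, above all IFN-γ, induce in infected and bystander cells. They assemble on the membranes of vacuoles and bacteria inside infected cells, recruit each other there and help inflammasomes to respond to bacterial products. Mice that lack the chromosome 3 cluster are known to control Toxoplasma poorly, and Gbp6, Gbp7 and Gbp10 are known from work on macrophages as genes of defence against bacteria inside cells. In the mouse genome they lie in clusters of close relatives, so short reads from one gene can match another.

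By the GENCODE annotation of GRCm38, the build to which the authors aligned, 3 members lay on the plus strand of chromosome 3 and 5 on the minus strand of chromosome 5. On chromosome 3 these were Gbp7 (chr3:142530342-142550149), Gbp3 (chr3:142560026-142573209) and Gbp2 (chr3:142620602-142638008). On chromosome 5 they were Gbp8 (chr5:105014150-105139540), Gbp9 (chr5:105077630-105139539), Gbp4 (chr5:105115767-105139586), Gbp10 (chr5:105215699-105239533) and Gbp6 (chr5:105270702-105293698). The spans of Gbp4, Gbp8 and Gbp9 overlapped, but their exons shared at most 61 bases. An annotated gene model on the same strand, Gm43302, covered 46.3% of the exonic bases of Gbp10 and 29.0% of those of Gbp6, and the count table had no row of that name.

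The chromosome 5 members were near copies of each other in their coding sequence, and this bears on how far their counts can be told apart. Over 10 pairs of chromosome 5 members the coding sequences were between 89.7% and 98.4% identical (median 90.8%), whereas the 3 pairs on chromosome 3 were between 64.6% and 78.6% identical. Gbp6 and Gbp10 formed the closest pair, with 1803 identical bases of 1833. The first 90 coding bases of the chromosome 5 members are shown here, 5′ to 3′ on the coding strand, from GENCODE transcripts, with capitals for bases that differ from Gbp6.
Gbp6: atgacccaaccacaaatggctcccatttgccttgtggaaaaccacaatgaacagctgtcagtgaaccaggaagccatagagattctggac
Gbp10: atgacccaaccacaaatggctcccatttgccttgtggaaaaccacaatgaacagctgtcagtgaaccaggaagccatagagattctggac
Gbp4: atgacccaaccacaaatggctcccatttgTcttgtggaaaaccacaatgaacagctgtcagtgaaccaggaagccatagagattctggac
Gbp8: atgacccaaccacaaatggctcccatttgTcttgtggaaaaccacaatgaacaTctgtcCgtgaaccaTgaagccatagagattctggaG
Gbp9: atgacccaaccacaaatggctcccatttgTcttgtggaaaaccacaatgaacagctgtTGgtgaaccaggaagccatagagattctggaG
Gbp10 did not differ from Gbp6 in this stretch, Gbp4 differed at 1 base, Gbp9 at 4 bases and Gbp8 at 5 bases.

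The sharing was unequal when whole transcripts were compared in stretches of 50 bases. Of the stretches of Gbp10, 73.3% also occurred in Gbp6, and of those of Gbp6, 46.0% occurred in Gbp10. With stretches of 75 bases these shares were 65.6% and 40.4%. Transcripts of the gene model Gm43302 held 72.1% of the 50-base stretches of Gbp10 and 65.0% of those of Gbp6. Those of another gene model, Gm43802, held 10.5% of the 50-base stretches of Gbp7. The share found in any other Gbp gene was 18.1% for Gbp8, 8.05% for Gbp9, 7.53% for Gbp4, 3.75% for Gbp3, 2.26% for Gbp7 and 2.03% for Gbp2. Counts of Gbp6 and Gbp10 are therefore uncertain between these genes, because how the authors counted reads that match several genes is not given in the sources used here. A sum over the chromosome 5 members is not changed by how reads are divided among these members, but would be by reads discarded or given to other genes.

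**Figure D1:**
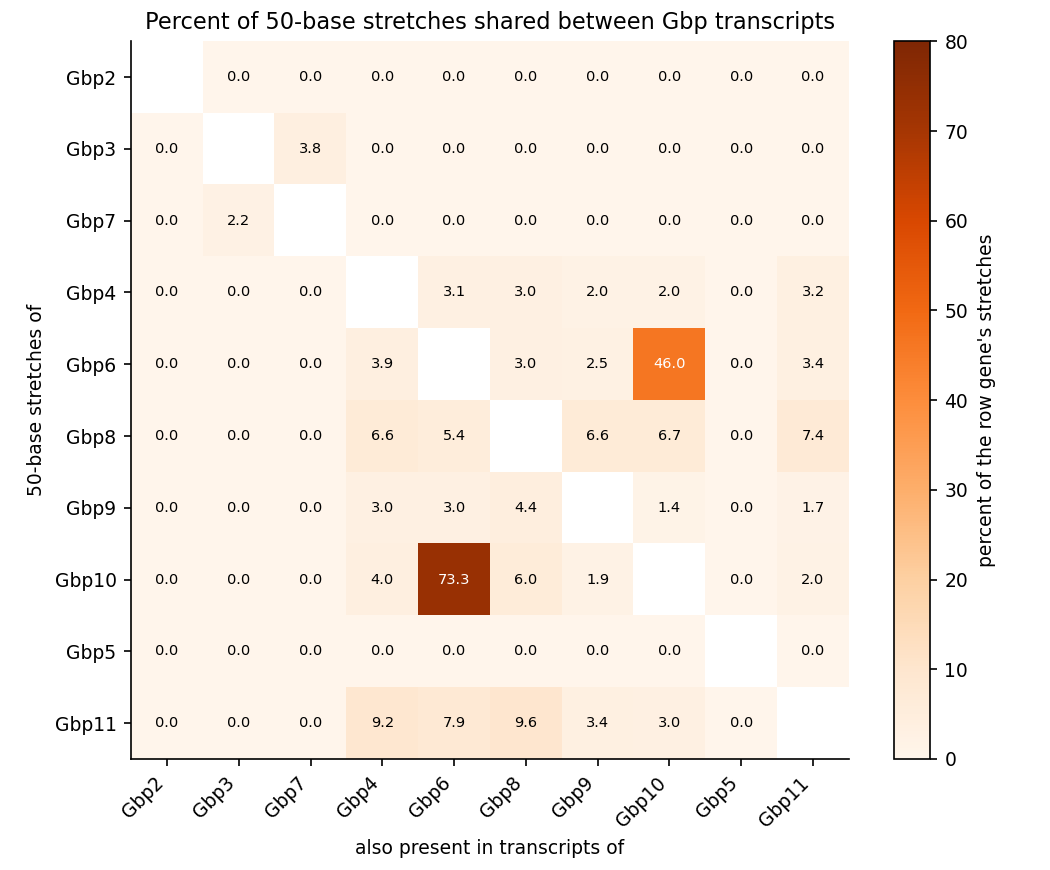
Percent of the 50-base stretches of each Gbp gene's transcripts (rows) that also occur in transcripts of another Gbp gene (columns), from GENCODE transcripts, with Gbp5 and Gbp11 added as further family rows of the count table. The pair Gbp6 and Gbp10 stands out at 46.0% and 73.3%, and members on different chromosomes share at most 0.02% of their stretches.

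The promoters of the chromosome 3 members were examined because interferon-activated factors bind known motifs there. RefSeq promoters of GRCm38 were matched by symbol for 3 of the 8 members, Gbp2, Gbp3 and Gbp7, and were searched on both strands over the 250 bases before the start. The letters GAAANNGAAA, those of an interferon-stimulated response element (ISRE), occurred in all 3, and in 2.98% of all 32851 promoters. The letters TTCNNNGAA, those of a gamma-activated site (GAS), occurred in 1 of the 3, Gbp7, and in 7.02% of all promoters. A stretch of each promoter, plus strand, is shown with both kinds of match in capitals, 110 bases long for Gbp7 and Gbp3 and 30 bases for Gbp2, whose match lies within the first exon of the GENCODE model.
Gbp7, chr3:142530226-142530335: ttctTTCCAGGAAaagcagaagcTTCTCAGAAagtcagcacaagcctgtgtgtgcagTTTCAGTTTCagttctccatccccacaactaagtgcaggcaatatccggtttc
Gbp3, chr3:142559916-142560025: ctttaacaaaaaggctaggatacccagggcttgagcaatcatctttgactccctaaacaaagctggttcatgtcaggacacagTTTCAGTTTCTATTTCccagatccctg
Gbp2, chr3:142620594-142620623: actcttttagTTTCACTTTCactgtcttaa
In Gbp7 the first and second runs of capitals are GAS matches and the last is the ISRE match, 53 bases before the RefSeq start. In Gbp3 the run of capitals holds 2 overlapping ISRE matches, which begin 45 and 39 bases before the start, and the other RefSeq promoter of Gbp3 held no match. In Gbp2 the ISRE match begins 59 bases before the start. Every ISRE match in these members lay on the minus strand. A match describes letters and not a bound site.

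Total counts per library were between 1859784 and 7784627, so that 3 counts, the least that was read as a level, stood for between 0.381 and 1.77 CPM. These limits cover counting error only, since the libraries have no molecular identifiers. HSC markers were present in every group (10 of 10 listed), and the 3 lymphoid markers with a row in the table summed to at most 3.11 CPM in any mouse. The targeted gene, Ythdf2, was at 118, 123, 93.4 and 97.2 CPM in young Ythdf2CTL mice 1 to 4 and at 55.6, 57.6, 60.3 and 50.3 CPM in young Ythdf2CKO mice 1 to 4, which did not overlap. In aged mice, 2 animals went against their labels. The mouse labelled Ythdf2CKO 121 had 188 CPM of Ythdf2, against 72.4 to 87.8 CPM in the other aged Ythdf2CKO mice, and the mouse labelled Ythdf2CTL 124 had 70.5 CPM, against 142 to 179 CPM in the other aged Ythdf2CTL mice. The comparisons of aged genotypes are given with and without these animals, and no label was changed. Whether the young and the aged libraries were made or sequenced together is not given in the sources used here, so age and any such difference cannot be told apart.

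The young comparison asks how loss of YTHDF2 changes the transcripts of HSCs. Gbp4 and Gbp6, both on chromosome 5, rose in young Ythdf2CKO mice, by 4.55-fold and 5.52-fold. Gbp9, Gbp8, Gbp2, Gbp3 and Gbp7 had log2 fold changes above 0 that did not pass after adjustment. Gbp10 had at most 3 counts in any young Ythdf2CTL mouse and was too low for the filter on low counts.

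Gbp4, a chromosome 5 member, was at 12.1, 7.95, 10.3 and 13.6 CPM in young Ythdf2CTL mice 1 to 4. In young Ythdf2CKO mice 1 to 4 it was at 75.9, 19.7, 54.9 and 49.0 CPM. Every Ythdf2CKO mouse lay above every Ythdf2CTL mouse, and mouse 2 was the lowest of the Ythdf2CKO mice. Its log2 fold change was 2.19 (SE 0.36), with a Benjamini-Hochberg adjusted p of 0.0201 by the quasi-likelihood test of edgeR, which is the test behind each adjusted p here unless another is named.

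Gbp6, which may share reads with Gbp10, was at 2.20, 3.43, 7.70 and 10.8 CPM in young Ythdf2CTL mice 1 to 4. In Ythdf2CKO mice 1 to 4 the level was 20.4, 38.4, 32.9 and 42.7 CPM. The groups did not overlap. This was a log2 fold change of 2.46 (SE 0.44), with an adjusted p of 0.0406 by the quasi-likelihood test of edgeR.

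Neither call held in every fit with a mouse left out. With any one of Ythdf2CTL mice 1, 2 or 3 or Ythdf2CKO mice 1 or 4 left out, neither gene passed. Without Ythdf2CTL mouse 4 Gbp6 alone passed, without Ythdf2CKO mouse 2 Gbp4 alone passed, and without Ythdf2CKO mouse 3 both passed. The direction held in each of these fits, since the log2 fold change stayed between 1.91 and 2.45 for Gbp4 and between 2.20 and 2.89 for Gbp6. Over every alternative that was run, the adjusted p of Gbp4 lay between 1.93e-06 and 0.998 and that of Gbp6 between 1.04e-05 and 0.901.

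Gbp8 was at 10.3, 19.5, 21.6 and 18.6 CPM in young Ythdf2CTL mice 1 to 4. In Ythdf2CKO mice 1 to 4 it was at 55.0, 29.1, 27.5 and 28.1 CPM. The groups did not overlap, and Ythdf2CKO mouse 1 stood apart from the other 3. Gbp8 had a log2 fold change of 0.99 (SE 0.32) with an adjusted p of 0.417 in edgeR. Gbp7 had a narrow spread for its level, with 96.1, 90.5, 86.5 and 90.5 CPM in Ythdf2CTL mice 1 to 4 against 117, 123, 132 and 104 CPM in Ythdf2CKO mice 1 to 4. Its groups did not overlap either, while its log2 fold change was small at 0.39 (SE 0.15, adjusted p = 0.557 in edgeR).

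Gbp9, Gbp2 and Gbp3 overlapped between genotypes. Gbp9 was at 11.4, 5.60, 7.11 and 2.07 CPM in Ythdf2CTL mice 1 to 4 and at 13.4, 25.6, 31.0 and 10.5 CPM in Ythdf2CKO mice 1 to 4, a log2 fold change of 1.62 (SE 0.50, adjusted p = 0.375 in edgeR). Only Ythdf2CKO mouse 4 lay within the Ythdf2CTL range. Gbp2, a member whose product can be attached to membranes by a lipid anchor, was at 80.9, 73.4, 49.4 and 44.6 CPM against 101, 75.1, 118 and 70.6 CPM. Gbp3 was at 30.1, 34.5, 26.9 and 48.2 CPM against 64.3, 47.7, 36.2 and 52.6 CPM. The log2 fold change was 0.56 (SE 0.24) for Gbp2 and 0.53 (SE 0.25) for Gbp3, with adjusted p-values of 0.632 and 0.704 in edgeR.

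Gbp10 had 0 counts in young Ythdf2CTL mice 1, 2 and 3 and 3 counts in mouse 4. Young Ythdf2CKO mice 1 to 4 had 1, 65, 21 and 34 counts, or 0.198, 11.9, 4.02 and 5.11 CPM. Ythdf2CKO mouse 1, which had the highest Gbp4 and Gbp8, was within the range of the controls. Summed over mice and scaled for depth, 3 counts stood against 121, a ratio of 41.0 with a 95% counting interval from 13.7 to 202. That interval does not include the spread between mice. Without a filter on low counts the adjusted p of Gbp10 was 0.260 in edgeR.

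Of the 8 members, 7 passed the filter in young mice, and the log2 fold change was above 0 in all 7 (median 0.99, against -9.28e-04 over all 11526 genes tested). An unadjusted p below 0.05 was reached by 7, against 4.26% of all genes in that direction, and an adjusted p below 0.05 by 2, against 0.13% of all genes. In 4 members every Ythdf2CKO mouse lay above every Ythdf2CTL mouse, against 2.68% of all genes. Members with stretches in common may share reads, so these counts need not be independent. The members were also chosen with earlier results of these data known, so the counts describe the list only. An exact two-sided permutation test over mice gave p = 0.0286 for each of Gbp4, Gbp6, Gbp7 and Gbp8, the smallest value that 4 mice against 4 can give, and between 0.0571 and 0.143 for the other 4 members, all unadjusted.

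**Figure D2:**
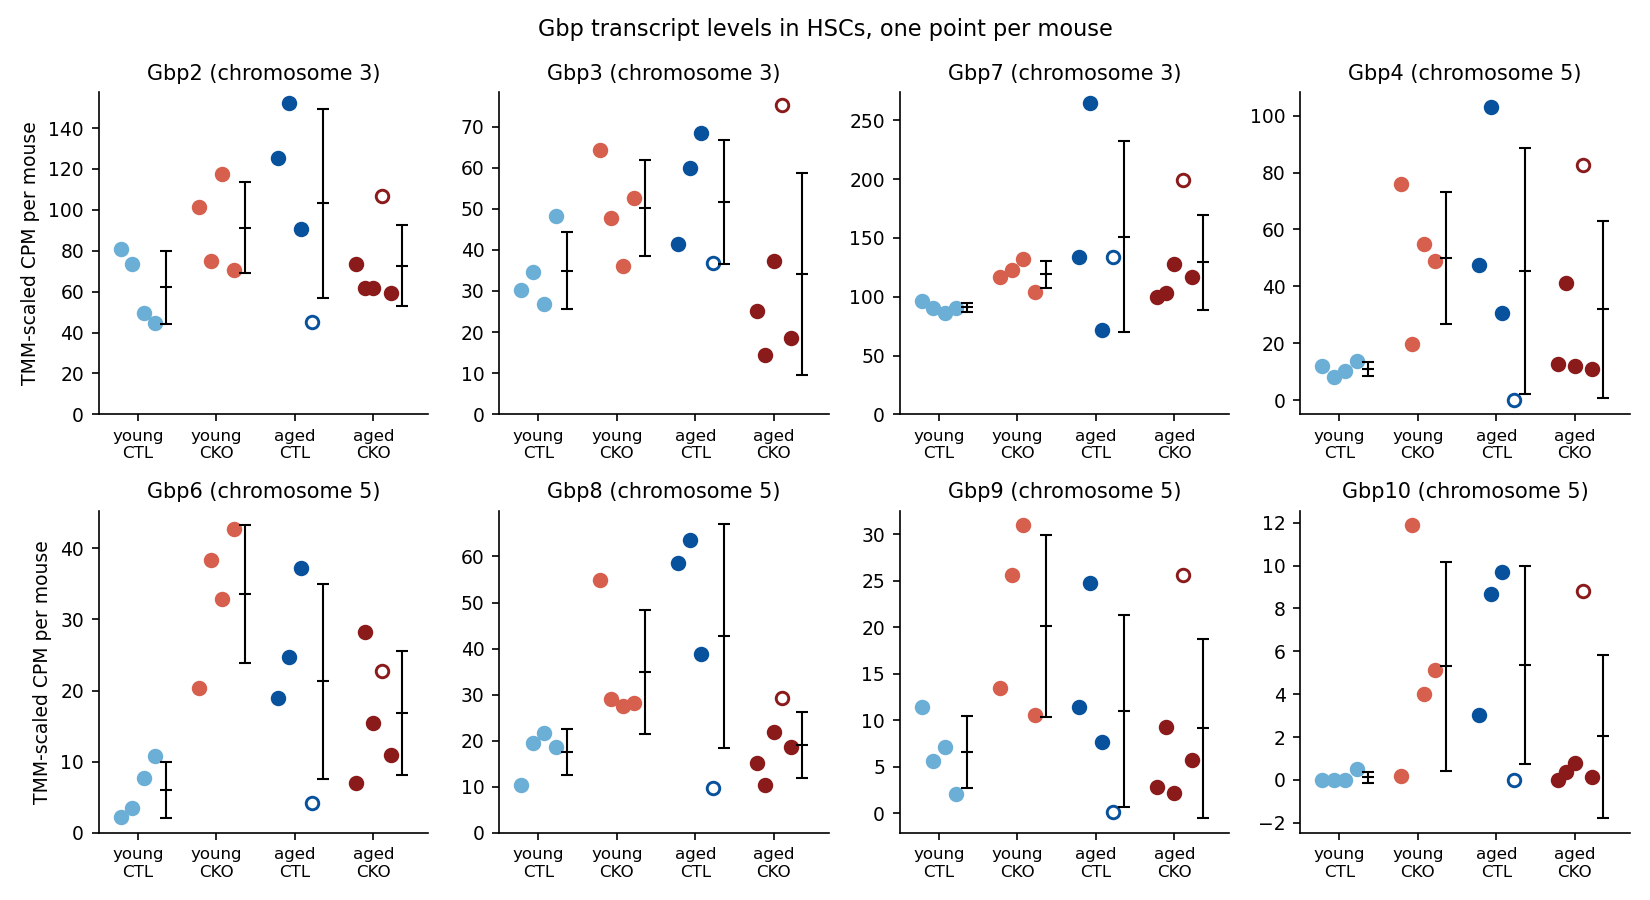
TMM-scaled CPM of each member (vertical axes, one panel per gene) in each mouse (points) of the 4 groups, with the mean and SD of the group beside the points. Open circles mark the aged mice labelled Ythdf2CTL 124 and Ythdf2CKO 121, whose Ythdf2 levels go against their labels. In young mice the groups do not overlap for Gbp4, Gbp6, Gbp7 and Gbp8, and in aged mice no member separates the groups.

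Summed over members, the fold between young genotypes was larger for chromosome 5 than for chromosome 3. The sum over the chromosome 5 members was 41.2 ± 5.73 CPM (SD, n = 4) in young Ythdf2CTL mice and 144 ± 17.6 CPM (SD, n = 4) in young Ythdf2CKO mice, a log2 fold change of 1.80 (SE 0.18). The sum over the chromosome 3 members was 188 ± 19.5 CPM (SD, n = 4) against 260 ± 28.5 CPM (SD, n = 4), a log2 fold change of 0.47 (SE 0.14). Accordingly, the chromosome 5 members made up between 14.8% and 22.3% of the summed CPM of the members in young Ythdf2CTL mice and between 33.7% and 37.3% in young Ythdf2CKO mice. When single mice were left out, the log2 fold change of the chromosome 5 sum stayed between 1.73 and 1.87 and that of the chromosome 3 sum between 0.41 and 0.54. No p is given for these sums, because the members were chosen with results of these data known.

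**Figure D3:**
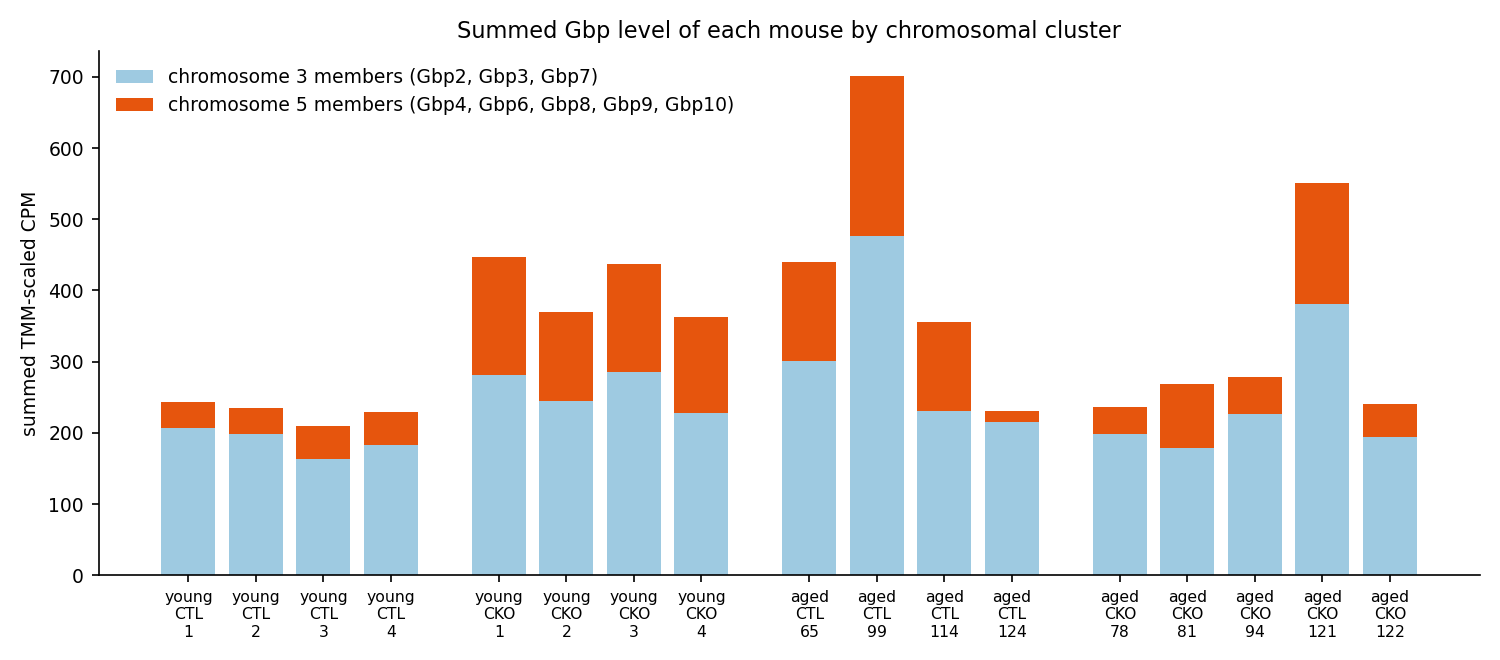
Summed TMM-scaled CPM of the members in each mouse (bars), split into the 3 members on chromosome 3 and the 5 on chromosome 5. The chromosome 5 part is between 33.7% and 37.3% of the bar in young Ythdf2CKO mice and between 14.8% and 22.3% in young Ythdf2CTL mice, and in aged Ythdf2CTL mouse 124 it is 6.21%.

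Levels can be compared between genes per kilobase of the longest coding transcript. In young Ythdf2CTL mice Gbp2 had the highest mean at 24.7 ± 7.08 CPM per kb (SD, n = 4), followed by Gbp7 at 16.2 ± 0.702, Gbp3 at 13.0 ± 3.50 and Gbp8 at 7.12 ± 2.02 CPM per kb. Gbp4 at 2.42 ± 0.535, Gbp6 at 2.32 ± 1.53, Gbp9 at 1.5 ± 0.886 and Gbp10 at 0.037 ± 0.073 CPM per kb were lower. The mice of Gbp3 overlapped with those of Gbp7 and, through mouse 4, with those of Gbp2, and Gbp4, Gbp6 and Gbp9 overlapped with each other, so the order among these is not resolved. In young Ythdf2CKO mice Gbp6 was at 12.9 ± 3.72 CPM per kb (SD, n = 4), above Gbp4 at 11 ± 5.11 and within the range of Gbp8 at 14.2 ± 5.44 CPM per kb, and the order was otherwise the same. With all aged mice, the order of the means in aged Ythdf2CTL and aged Ythdf2CKO mice was that of young Ythdf2CTL mice. Per kilobase of all annotated exons, Gbp9 came before Gbp6 in young Ythdf2CTL mice, and Gbp4 (6.66 CPM per kb) before Gbp6 (5.64 CPM per kb) in young Ythdf2CKO mice. Lengths are those of GENCODE models, since the annotation used for counting is not given in the sources used here.

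Samples of 100 cells from the same mouse differed widely in the low members. In young Ythdf2CKO mouse 3, Gbp4 had 287 counts in library A and 0 in library B, and in young Ythdf2CTL mouse 2 it had 44 and 0. Gbp10 in young Ythdf2CKO mouse 2 had 1 count in library A and 64 in library B. Among the 16 mice with both libraries, a library at 0 occurred in 11 mice for Gbp10, in 3 for Gbp4, in 2 for Gbp6, in 1 for Gbp9 and in none for Gbp2, Gbp3, Gbp7 and Gbp8. The median fold between libraries with counts in both was 2.52 for Gbp4 and 1.97 for Gbp6, against 1.27 for Gbp7 and 1.23 for Ythdf2. With only the A libraries of young mice, the log2 fold change of Gbp4 was 2.46 (SE 0.53), and with only the B libraries it was 1.26 (SE 1.00). The log2 fold change was above 0 for all 7 tested members with either set of libraries, and none was called with either (quasi-likelihood test of edgeR). In the mouse labelled aged Ythdf2CTL 124, Gbp8 had 2 counts in library A and 68 in library B, and Gbp3 had 16 and 246, so its libraries differed from each other more than those of other mice in these genes.

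**Figure D4:**
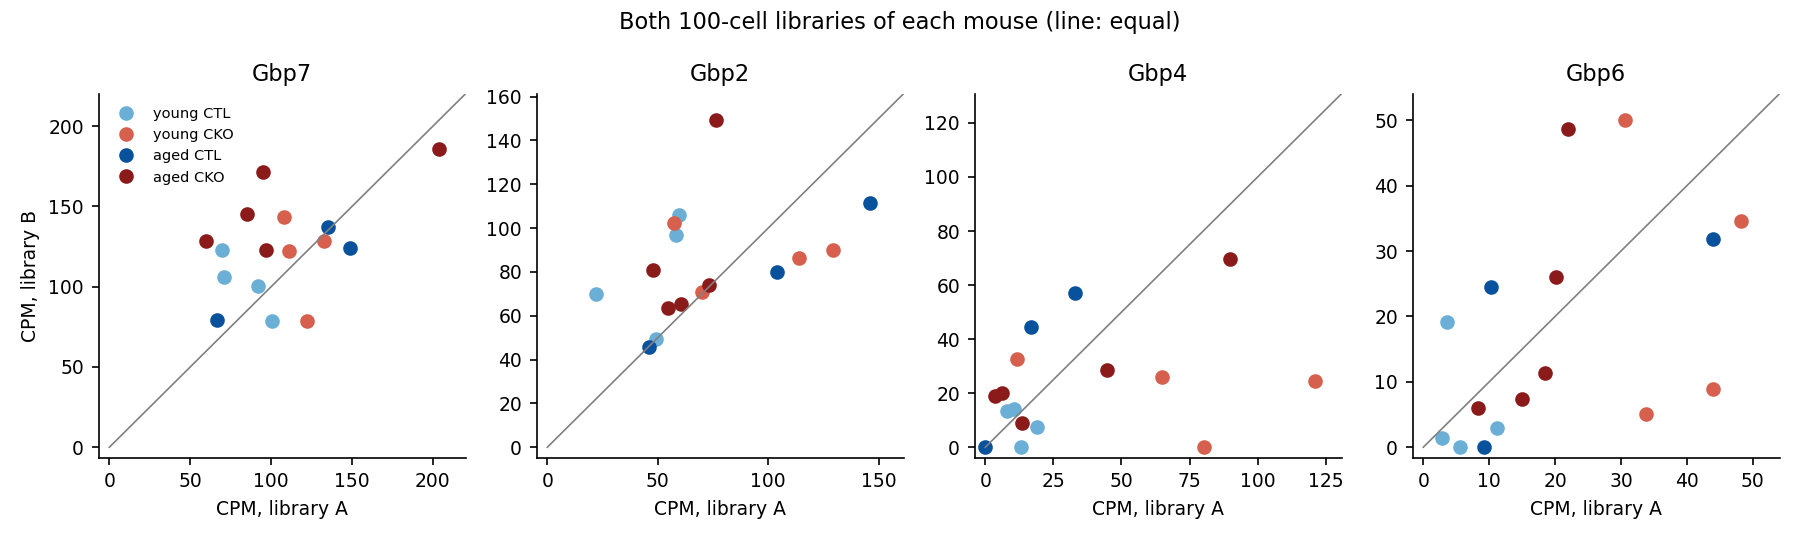
CPM in library A (horizontal axes) and library B (vertical axes) of the 16 mice with both libraries (points), for Gbp7, Gbp2, Gbp4 and Gbp6, with a line where both are equal. Points of Gbp7 lie close to the line (median fold 1.27), while those of Gbp4 scatter (median fold 2.52), with 3 mice that have a library at 0.

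Other measures also moved with genotype in young mice. The 6 megakaryocyte and platelet markers, all with counts, summed to between 536 and 888 CPM in young Ythdf2CTL mice and between 994 and 3114 CPM in young Ythdf2CKO mice. Most of this difference was in Pf4, with means of 439.9 and 1529 CPM, while Gp9 was at 84.5 and 61.8 CPM and Gp1ba at 27.4 and 23.1 CPM. Their part in the Gbp result was not tested. Macrophage, monocyte and granulocyte markers, of which 7 of 8 had a row, summed to between 753 and 827 CPM against between 735 and 890 CPM, nearly all of it Lyz2, and Csf1r was at or below 2.39 CPM in every mouse. In bulk samples more cells that express a gene cannot be told apart from more RNA per cell. Reads of Y-linked genes were present in young Ythdf2CTL mice 1, 2 and 3 and in young Ythdf2CKO mouse 1. Among mice with such reads, Gbp4 was at 75.9 CPM in the Ythdf2CKO mouse and between 7.95 and 12.1 CPM in the 3 Ythdf2CTL mice. Among mice without them it was between 19.7 and 54.9 CPM in 3 Ythdf2CKO mice and at 13.6 CPM in the Ythdf2CTL mouse. For Gbp6 the corresponding levels were 20.4 against 2.20 to 7.70 CPM and 32.9 to 42.7 against 10.8 CPM. With Y-linked level as a covariate Gbp6 was no longer called (log2 fold change 1.99, adjusted p = 0.127 in edgeR), and Gbp4 was (2.28, adjusted p = 0.0470).

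The aged comparison asks the same of HSCs from older mice. No member was called, and all 8 had a log2 fold change below 0, between -1.38 (Gbp10) and -0.22 (Gbp7), with a median of -0.50 against -0.00328 over all 11961 genes tested. No gene of the table was called either (0% of all genes) by the quasi-likelihood test of edgeR. Gbp8 alone had an unadjusted p below 0.05, against 5.65% of all genes in that direction, and 0 members were called by the likelihood ratio test of edgeR or by DESeq2. Without aged Ythdf2CTL mouse 99, which had the highest Gbp2, Gbp4, Gbp7, Gbp8 and Gbp9 of its group and only 1 library, the sign turned for Gbp4 (0.28), Gbp7 (0.19) and Gbp9 (0.49). Without Ythdf2CTL mouse 114 it turned for Gbp6 (0.086).

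Gbp8 was at 58.6, 63.6, 38.9 and 9.81 CPM in aged Ythdf2CTL mice 65, 99, 114 and 124. In aged Ythdf2CKO mice 78, 81, 94, 121 and 122 it was at 15.2, 10.4, 21.8, 29.3 and 18.6 CPM. Apart from mouse 124, every Ythdf2CTL mouse lay above every Ythdf2CKO mouse. Gbp8 had a log2 fold change of -1.16 (SE 0.46, adjusted p = 0.432 in edgeR).

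Gbp4 spread widely among aged Ythdf2CTL mice, at 47.5, 103, 30.5 and 0.140 CPM in mice 65, 99, 114 and 124. In aged Ythdf2CKO mice 78, 81, 94, 121 and 122 it was at 12.7, 41.1, 12.1, 82.8 and 10.9 CPM. The groups overlapped over most of their range (log2 fold change -0.50, SE 0.92, adjusted p = 0.901 in edgeR). The mean log2 CPM of Gbp4 was higher in Ythdf2CKO mice, by 0.49, and that of Gbp9 by 0.19, so the sign for these genes depends on the measure. Gbp4 of the mouse labelled Ythdf2CTL 124 was 1 count in 7238693.

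Gbp6 was at 18.9, 24.8, 37.3 and 4.20 CPM in aged Ythdf2CTL mice 65, 99, 114 and 124, and the aged Ythdf2CKO mice 78, 81, 94, 121 and 122 had 6.96, 28.2, 15.4, 22.8 and 10.9 CPM. These groups overlapped (log2 fold change -0.33, SE 0.56), with mouse 124 below every other mouse. In the same order of mice, Gbp2 was at 125, 152, 90.5 and 45.3 CPM against 73.4, 61.7, 61.9, 107 and 59.4 CPM. Gbp3 was at 41.5, 59.8, 68.5 and 36.7 CPM against 25.2, 14.3, 37.4, 75.2 and 18.5 CPM. In both genes mouse 121 was the highest of the Ythdf2CKO mice and mouse 124 the lowest of the Ythdf2CTL mice and without these mice the groups did not overlap. Gbp7 was at 134, 265, 72.1 and 134 CPM against 100.0, 103, 127, 199 and 117 CPM. Gbp9 was at 11.4, 24.8, 7.64 and 0.140 CPM against 2.83, 9.25, 2.14, 25.7 and 5.74 CPM. In Gbp7 mouse 114 was the lowest of all, and in Gbp9 mice 99 and 121 were the highest. Gbp10 had 29, 21, 52 and 0 counts in Ythdf2CTL mice 65, 99, 114 and 124 and 0, 4, 4, 67 and 1 counts in Ythdf2CKO mice 78, 81, 94, 121 and 122, so that a single Ythdf2CKO mouse had more than 4 counts.

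The 2 aged mice that went against their labels in Ythdf2 also stood at the ends of their groups in the Gbp genes. The mouse labelled Ythdf2CKO 121 was the highest of its group in 7 of the 8 members, and the mouse labelled Ythdf2CTL 124 was the lowest of its group in 7 of the 8 members. In platelet markers, mouse 121 had a sum of 554 CPM, against 1565 to 2017 CPM in the other aged Ythdf2CKO mice and 352 to 563 CPM in all aged Ythdf2CTL mice. Mouse 124 had 507 CPM. Thus mouse 124 was near the level of Ythdf2CKO mice 78, 81, 94 and 122 in Ythdf2 but not in platelet markers.

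Without these 2 mice, the aged comparison held 3 Ythdf2CTL and 4 Ythdf2CKO mice. All 8 members again had a log2 fold change below 0, against a median of -0.00859 over all 12005 genes tested. Gbp10 entered this fit only through the Ythdf2CTL mice, in which it was higher, so its value is a description, and the median of the other 7 members was -1.25. Gbp8 fell by 1.71 on the log2 scale (SE 0.32, adjusted p = 0.0429 by the quasi-likelihood test of edgeR), and it was the single member called, against 0.125% of all genes called in that direction. Gbp2, Gbp3 and Gbp8 did not overlap between groups, against 5.41% of all genes in that direction. For Gbp10 the remaining Ythdf2CKO mice had 0, 4, 4 and 1 counts, and the remaining Ythdf2CTL mice had 29, 21 and 52. Gbp2 had a log2 fold change of -0.94 (SE 0.21, adjusted p = 0.0834 in edgeR) and Gbp3 of -1.25 (SE 0.34, adjusted p = 0.15). The sum over the chromosome 5 members had a log2 fold change of -0.67 with all aged mice and -1.53 without the 2 mice, and the sum over the chromosome 3 members -0.37 and -0.75.

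**Figure D5:**
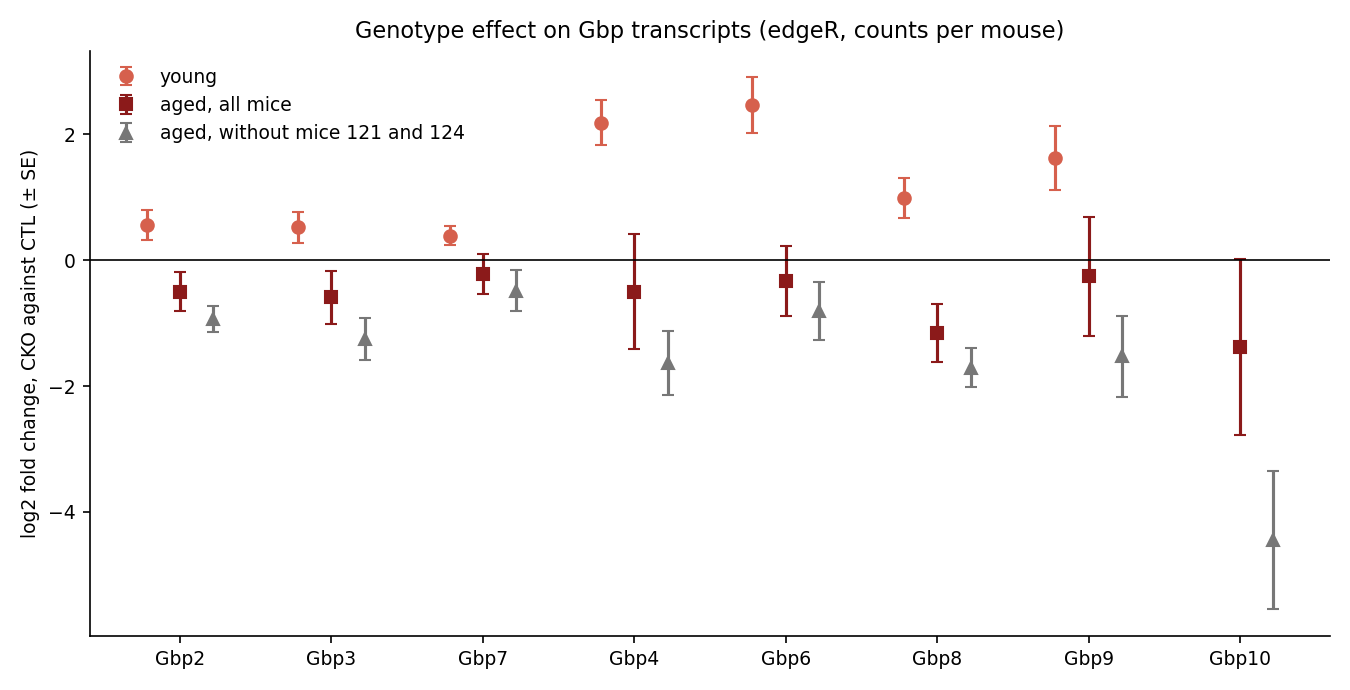
Log2 fold change of each member, Ythdf2CKO against Ythdf2CTL (vertical axis, points with SE), in young mice, in all aged mice and in aged mice without mice 121 and 124. All 7 members tested in young mice lie above 0 and all 8 in aged mice lie below 0, and Gbp10 has no young value because it did not pass the filter on low counts.

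Whether the genotype effect differed between ages was tested in a fit over all 17 mice. The difference, aged minus young, was below 0 for all 8 members (median -2.0, against -0.0204 over all 12352 genes tested). An unadjusted p below 0.05 was reached by 6 members, against 2.7% of all genes in that direction, but no member had an adjusted p below 0.942, and 0 genes of any kind were called by the quasi-likelihood test of edgeR. The likelihood ratio test of edgeR called 0 members as well. For Gbp8 the difference was -2.15 (SE 0.60) and for Gbp6 -2.79 (SE 0.76) on the log2 scale. Without the 2 mice, Gbp4 (-3.81, SE 0.67, adjusted p = 0.0201), Gbp8 (-2.69, SE 0.46, adjusted p = 0.0180) and Gbp10 (adjusted p = 0.0361) were called by edgeR, against 0.113% of all genes in that direction. The size for Gbp10 is not given, because it rests on 3 counts in young Ythdf2CTL mice. Gbp10 entered this fit through the groups in which it was higher, so its values and calls, here and between Ythdf2CTL mice, are given as a description and not as support.

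Between aged and young Ythdf2CTL mice, all 8 members had a log2 fold change above 0, with a median of 1.00, while the median of all genes tested was 0.11. Age and any difference in how the libraries were made or sequenced cannot be told apart here. Gbp6 was called (1.79, SE 0.57, adjusted p = 0.0389 by the quasi-likelihood test of edgeR), against 6.7% of all genes called higher, and 6 members had an unadjusted p below 0.05, against 15.6% of all genes. Leaving out young Ythdf2CTL mouse 1, 2 or 3 or aged Ythdf2CTL mouse 99 left no member called, leaving out aged Ythdf2CTL mouse 124 left 5 called, and leaving out aged Ythdf2CKO mouse 78 or 121 left 2 called. Without mice 121 and 124 together, 6 members were called, against 7.7% of all genes. These were Gbp2 (0.98), Gbp4 (2.44), Gbp6 (2.14), Gbp7 (0.77), Gbp8 (1.61) and Gbp10, on the log2 scale. Because this comparison and the young comparison share the young Ythdf2CTL mice, their values are given side by side only.

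Genes that act with or beside the guanylate-binding proteins were taken from lists of known genes. The immunity-related GTPases are smaller interferon-induced GTPases that work at the same vacuoles. In young mice all 7 had a log2 fold change above 0 (median 0.94), and 2 rose at an adjusted p below 0.05 in edgeR, Igtp (1.02, SE 0.16, adjusted p = 0.0145) and Irgm1 (0.76, SE 0.14, adjusted p = 0.0406). Igtp was at 115 ± 16.3 CPM in young Ythdf2CTL and 231 ± 29.3 CPM in young Ythdf2CKO mice (SD, n = 4). In aged mice 0 of the 7 were called, 5 were above 0, and the median was 0.07. Without mice 121 and 124 the sign turned for 3 of the 7, Igtp, Iigp1 and Tgtp2, with 5 of the 7 below 0 and a median of -0.48, and again 0 were called by edgeR. An unadjusted p below 0.05 was then reached by Tgtp1 (-0.87, SE 0.26), whose counts are uncertain because Tgtp2 is a near copy, and Irgm2 (-0.55, SE 0.25), which are named after their values were seen. Of all 12005 genes tested, 726 were lower at that level. Ifi47 (0.39, SE 0.20) and Irgm1 (0.16, SE 0.18) stayed above 0. With all aged mice, Ifi47 had been at 0.51 (SE 0.20), with an unadjusted p below 0.05 in edgeR.

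Of 15 interferon signaling genes, 11 had a log2 fold change above 0 in young mice, with a median of 0.18 over the list. Calls of this list in young mice are not reported here. In aged mice 6 of the 15 were above 0 and none was called by edgeR, with a median of -0.05. An unadjusted p below 0.05 was reached in aged mice by 3 of them, Ifngr2 (-0.84, SE 0.35), Irf8 (-1.98, SE 0.67) and Socs3 (1.82, SE 0.60) on the log2 scale, which are named after their values were seen. Of all 11961 genes tested in aged mice, 532 were higher and 676 lower at that level. Without mice 121 and 124, 4 of the 15 were above 0, none was called by edgeR and the median was -0.17. At an unadjusted p below 0.05 in edgeR, 1 of the 15 was then higher and 5 were lower. Of all 12005 genes tested, 664 were higher and 726 lower at that level. Irf1, a transcription factor known to activate Gbp genes, was at 141 ± 15.5 CPM in young Ythdf2CTL and 162 ± 36.2 CPM in young Ythdf2CKO mice (SD, n = 4) and was chosen for mention after its values were seen.

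No gene of the lists that follow was called in either genotype comparison, nor in aged mice without mice 121 and 124. Among related large GTPases, 5 of 5 tested had a value above 0 in young mice, led by Mx2 (1.57, SE 0.72) and Gvin1 (1.29, SE 0.79). Gvin1 is one of several similar very large GTPases whose reads may be shared. Of 5 inflammasome genes tested 3 were above 0, with Casp4, a receptor for bacterial lipopolysaccharide, at 0.64 (SE 0.22) and Casp1 at -0.32 (SE 0.20). The prenylation list holds enzymes that attach the lipid anchor of some guanylate-binding proteins or process the anchored end afterwards. It had 3 of 6 above 0, among them Zmpste24 at 0.37 (SE 0.17), and Fntb at -0.51 (SE 0.26). The ATG conjugation genes, which are needed to deliver these GTPases to vacuoles, had 4 of 10 above 0 with a median of -0.06.

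Gbp5 and Gbp11 were further rows of the family that are not among the 8 members. Gbp11, annotated as a polymorphic pseudogene on chromosome 5, had 4, 1, 0 and 2 counts in young Ythdf2CTL mice 1 to 4 and 9, 36, 41 and 61 counts in young Ythdf2CKO mice 1 to 4 (adjusted p = 0.101 in edgeR). Gbp5, on chromosome 3, was at 2.86, 5.78, 2.32 and 7.57 CPM against 5.54, 4.57, 23.1 and 4.06 CPM, where Ythdf2CKO mouse 3 alone was high.

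The genes whose levels followed the mean of the members most closely within groups were Parp11 (Pearson r = 0.934), Bcl7b (0.931), Il27 (0.918), Cd1d1 (0.917) and Glipr2 (0.906), over 17 mice after the mean of each group was subtracted and among 12344 genes. Spearman rho for these genes was between 0.645 and 0.841. Mice 124 and 121 were the farthest from the median. With them dropped after the group means were subtracted, r was between 0.757 and 0.884. Those means still included mice 124 and 121, so such values are not free of these mice. Ythdf2 ranked 12th (r = 0.885, and 0.721 with the 2 mice dropped in this way). These values are descriptions over mice.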

How the data were processed

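The deposited table holds whole-number counts per gene and library, not normalized. The authors had aligned the reads to GRCm38 (mm10) by HISAT2 and assigned them to genes by Rsubread. Annotation, strand use and the treatment of reads that match several genes are not given in the sources used here. The members and gene lists were chosen with earlier results of these data known. The named genes are the 8 members, Ythdf2, list genes that were called (or up to 4 with the smallest p in young mice) and the 5 genes most like the members.

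Counts of the libraries of a mouse were added, which left 33 libraries of 17 mice. Low genes were removed by filterByExpr (min.count 10, min.total.count 15). After TMM scaling, the quasi-likelihood test of edgeR 4.0.16 (R 4.3.3) was run for each age on its own, and a gene was called at a Benjamini-Hochberg adjusted p below 0.05. The difference between ages and the comparison of Ythdf2CTL mice used 1 fit of all mice. Levels are CPM with TMM scaling over all mice, log2 CPM used a prior count of 2, and SE is the log2 fold change over the square root of F. The script was tested on simulated data. Alternatives were DESeq2 1.42.0, the likelihood ratio test, other filters and scaling, libraries as replicates, a Y-linked covariate, a replicate block and mice left out. Per the study's methods controls were littermates, but no source used here ties a mouse number to a litter or day. Sequences came from GENCODE M21 transcripts and from RefSeq promoters of GRCm38.p6, and coding sequences were aligned with Biopython 1.88. One gene of the interferon signaling list is not reported here.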

Additional observations from a re-analysis of the deposited data

Results flagged for a closer look

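The following values lay apart from the other mice of their group by Dixon's criterion, over 52 sets of values checked, of which chance alone would flag about 1 in 20. In the aged mouse labelled Ythdf2CKO 121, Gbp7 was at 199 CPM (next highest 127 CPM), Gbp10 at 8.82 CPM (next 0.778 CPM), Ythdf2 at 188 CPM (next 87.8 CPM), the sum of all members at 551 CPM (next 279 CPM) and the sum of the chromosome 3 members at 381 CPM (next 227 CPM). In the aged mouse labelled Ythdf2CTL 124, the chromosome 5 members made up 6.21% of the summed member CPM, against 31.7% in the next lowest mouse. In young Ythdf2CKO mouse 1, Gbp8 was at 55.0 CPM, against 29.1 CPM in the next mouse. Gbp10 of young Ythdf2CTL mouse 4 was at 0.516 CPM, which is 3 counts, where the other 3 mice had 0.

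In the library that was left out, B of aged Ythdf2CTL mouse 99, Gbp9 was at 96.2 CPM, which is 18 counts of 187034, against at most 27.0 CPM in the other aged Ythdf2CTL libraries. Of the family rows outside the members, Gbp5 was at 118 CPM in that library, against at most 18.2 CPM, and Gbp11 at 64.2 CPM, against at most 16.2 CPM. These values are CPM of the library total without TMM scaling, unlike the other levels given.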

How the results depend on the processing

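In young mice 2 members were called in the analysis as reported, and 2 with the likelihood ratio test over mice, DESeq2, DESeq2's size factors and either other filter on low counts. The count was 1 with the likelihood ratio test over libraries, 0 with the quasi-likelihood test over libraries, 1 with the Y-linked covariate, 0 with all 17 mice in one fit, 0 with only A or only B libraries (chosen after seeing the data) and between 0 and 2 with each mouse left out. Deviations of same-numbered young mice were hardly correlated (r between -0.0190 and 0.0494), and 2 of 4 matched best with their own number. Whether the numbers pair mice by litter or day cannot be told from these values. The replicate block by mouse number left the count at 2.

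In aged mice the count of 0 became 1 without mice 121 and 124, and the difference between ages went from 0 to 3. Between Ythdf2CTL mice of the ages, the count of 1 became 3 with the likelihood ratio test, 6 without mice 121 and 124 and between 0 and 5 with each mouse left out, where Gbp9 lay between -0.033 and 1.12. In the aged comparison Gbp9 turned to 0.10 with libraries as replicates by either test, to 0.10 with the replicate block by library letter, to 0.043 with the Y-linked covariate, to 0.19 with A libraries and to 7.68e-04 with B libraries. With B libraries Gbp2 turned to 0.15, Gbp6 to 0.093 and Gbp7 to 0.43. With each mouse left out Gbp4 lay between -1.23 and 0.28, Gbp6 between -0.68 and 0.086, Gbp7 between -0.46 and 0.19 and Gbp9 between -1.12 and 0.49. The cause of these changes was not tested. The low members had libraries at 0 beside libraries with counts from the same mouse, which limits the precision of their levels.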
